A study of Mus musculus with 6 samples.

Results

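Collagens are the 44 protein-coding genes, of 21887 in the RefSeq table, whose symbol is Col, a number, a and a number. Their accessible chromatin was taken as the 458 regions, of 193148 listed for the whole series, that overlap a collagen gene or the 10 kb on either side of it. The genes were chosen by symbol, and the regions because the deposited tables list them there. Regions inside a gene are not assigned to exons, introns or UTRs, because the annotation used holds gene bounds only. How the submitters made the region list is not stated in the sources used here, and no difference between genotypes entered the choice of members. The genes were divided into 11 fibrillar collagens with 92 regions, 8 basement membrane collagens with 101 regions and 25 other collagens with 265 regions. Of the 44 genes, 43 had at least 1 region. Col10a1, the type X collagen of growth-plate cartilage, had none.

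Chromatin accessibility was measured by ATAC-seq, an assay of DNA open to a transposase, in nuclei of the ventral tegmental area of mice. Male Ogtflox+/Y mice carry a floxed allele of Ogt, the X-linked gene for O-GlcNAc transferase, which places single sugars on proteins of nucleus and cytoplasm, and Ogtflox-/Y mice do not. Both genotypes received 2 viral vectors in that area, AAV-TH-Cre together with the Cre-dependent reporter AAV-DIO-H2B-EGFP, and EGFP-positive nuclei were sorted, so Cre and the reporter were also present in the Ogtflox-/Y mice. The TH in the vector name is read here as the tyrosine hydroxylase promoter, and only nuclei that Cre reached were meant to carry the reporter. The labels name the cells dopaminergic neurons. Ages are not given in those sources. There were 3 libraries of each genotype, and the labels do not say whether each came from its own animal, so the p-values reflect library-to-library spread alone, which may be technical. The study asked how lowering Ogt in these neurons changes open chromatin.

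Collagens are extracellular matrix proteins built of triple helices of alpha chains. Fibrillar collagens such as types I, III and V form the cables of connective tissue, type IV forms the sheet-like network of basement membranes, and types XV and XVIII sit in or beside that network. Others coat fibrils, form beaded microfibrils or span the cell membrane. In brain, most collagen lies in the meninges and in the basement membrane around vessels, while neurons make some members, among them the transmembrane type XXV and the fibril-associated type XIX.

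Library totals were 42606274, 41025728 and 42678585 reads in Ogtflox+/Y replicates 1 to 3 and 34384319, 66853563 and 52895584 reads in Ogtflox-/Y replicates 1 to 3. Between 31.0% and 38.2% of reads lay in regions. Levels are CPM of the reads in regions, which sets each library to the same read total, with TMM scaling, and 3 reads equal 0.117 to 0.238 CPM by library. Across all regions, log levels correlated at 0.914 to 0.930 within Ogtflox+/Y, 0.940 to 0.960 within Ogtflox-/Y and 0.809 to 0.879 between genotypes. Ogtflox+/Y replicate 1 carries that genotype in its genotype label, while its title names Ogtflox-/Y. Its correlation with the other Ogtflox+/Y libraries was 0.914 and 0.930, and with the Ogtflox-/Y libraries 0.809 to 0.842. Under a grouping by title, edgeR called 0 of the 458 collagen regions at an adjusted p under 0.05, with 66 at an unadjusted p under 0.05. Every genotype difference given here therefore rests on the genotype label. The 8 dopaminergic marker genes all had accessible regions, and their summed level was 830.1, 775 and 697 CPM in Ogtflox+/Y, against 677, 1114 and 883 CPM in Ogtflox-/Y. Th had the most reads of the 8 in every library. By reads summed per gene, scaled separately, Th had 343, 283 and 256 CPM in Ogtflox+/Y, against 288, 691 and 458 CPM in Ogtflox-/Y. On those sums edgeR called Th lower (log2 fold change -0.71) and En1 higher (0.46), and 6 were not called. Regions of 8 astrocyte markers summed to 547, 433 and 546 CPM in Ogtflox+/Y, against 422, 385 and 386 CPM in Ogtflox-/Y. Of 72 tested astrocyte regions, 27 were called higher (37.5%) and 3 lower (4.17%). Oligodendrocyte lineage markers summed to 398, 284 and 331 CPM in Ogtflox+/Y, against 339.5, 312 and 301 CPM in Ogtflox-/Y. Of their 62 tested regions, 18 were higher (29.0%) and 10 lower (16.1%). Microglial markers summed to 141, 126 and 133 CPM in Ogtflox+/Y, against 143, 125 and 129 CPM in Ogtflox-/Y. Microglial regions had 3 higher (13.0%) and 2 lower (8.70%) of 23, and dopaminergic regions 6 higher (10.5%) and 2 lower (3.51%) of 57. Over all tested regions of the series, the shares were 15.4% higher and 12.7% lower, so both lists lay below them.

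Collagen regions lost accessibility in Ogtflox+/Y more often than they gained it. Of 455 collagen regions tested, 43 were higher in Ogtflox+/Y (9.45%) and 75 were lower (16.5%) by edgeR's quasi-likelihood test at a Benjamini-Hochberg adjusted p under 0.05. Over all 191693 tested regions of the series, 15.4% were higher and 12.7% were lower. The median log2 fold change of Ogtflox+/Y over Ogtflox-/Y was -0.14 over collagen regions and -0.0063 over all regions. The 3 collagen regions not tested had too few reads and lie near Col17a1, Col23a1 and Col5a3. In these sorted pools of nuclei, fewer nuclei of a type and less accessible chromatin per nucleus cannot be told apart.

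Gains were counted mostly at fibrillar and other collagens, and losses in all 3 classes. Among fibrillar collagens 18 of 91 tested regions were higher in Ogtflox+/Y (19.8%) and 15 were lower (16.5%), with a median log2 fold change of 0.023. Among basement membrane collagens 4 of 101 were higher (3.96%) and 19 were lower (18.8%), with a median of -0.28. Among other collagens 21 of 263 were higher (7.98%) and 41 were lower (15.6%), with a median of -0.13. Set beside the 15.4% over all regions, the share of gains was above it in the fibrillar class and below it in the other two. The fibrillar share fell below that over all regions without Ogtflox+/Y replicate 1 (10.9%, against 12.5%), without Ogtflox-/Y replicate 2 (9.89%, against 9.91%) and with Ogtflox+/Y replicate 2 alone (4.35%, against 5.89%). The share of losses was above the 12.7% over all regions in each class. It was not so for other collagens under loess scaling (11.03%, against 11.53%) and without Ogtflox-/Y replicate 3 (9.51%, against 9.61%), nor for fibrillar collagens without Ogtflox+/Y replicate 2 (11.96%, against 12.95%). No test of one class against another was made, because regions of 1 gene share their neighbourhood and are not replicates.

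**Figure D1:**
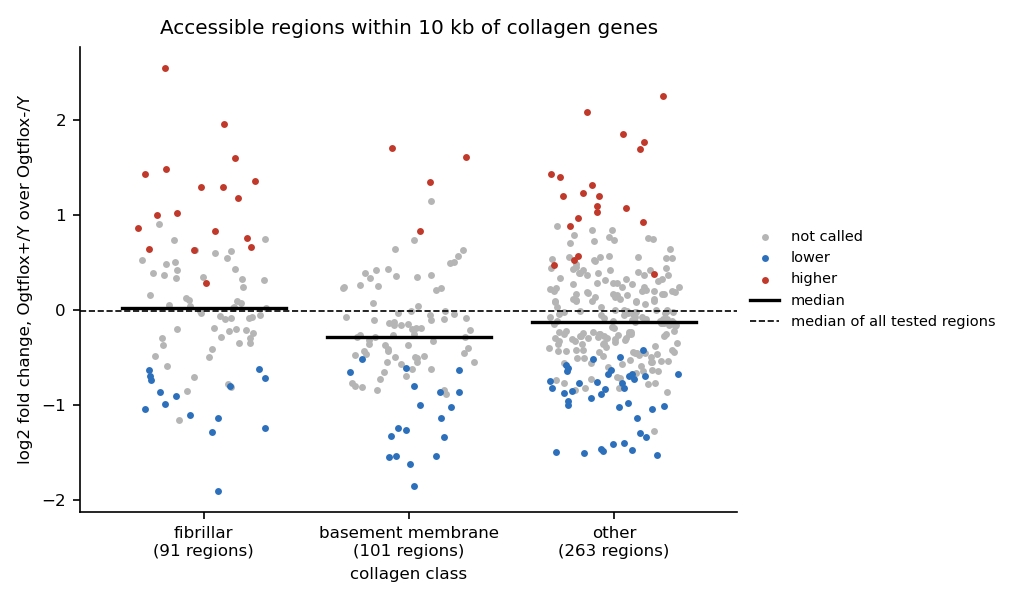
Each point is 1 tested accessible region of a collagen gene, placed by class on the horizontal axis and by its log2 fold change of Ogtflox+/Y over Ogtflox-/Y on the vertical axis; red and blue points were called higher and lower. The basement membrane median lies at -0.28, below the dashed median of all regions at -0.0063, and 4 of its 101 points are red.

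Levels were also summed over the regions of each class in each library. Basement membrane regions summed to 298, 288 and 297 CPM in Ogtflox+/Y replicates 1 to 3, against 372, 345 and 368 CPM in Ogtflox-/Y replicates 1 to 3. The groups did not overlap, with every Ogtflox+/Y library below the lowest Ogtflox-/Y one. Lack of overlap was common in the series and is no mark of collagens. Single regions showed it in 195 of 455 tested collagen regions and in 80761 of all 191693 tested regions. It was not counted for sums over other genes. Fibrillar regions summed to 431, 332 and 370.2 CPM in Ogtflox+/Y, against 348, 339.6 and 342 CPM in Ogtflox-/Y. Here the groups overlapped, since Ogtflox+/Y replicate 2 was the lowest of all 6 libraries and replicate 1 the highest. Regions of other collagens summed to 1038, 1035 and 997 CPM in Ogtflox+/Y, against 1113, 998 and 1044 CPM in Ogtflox-/Y, and these groups also overlapped.

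**Figure D2:**
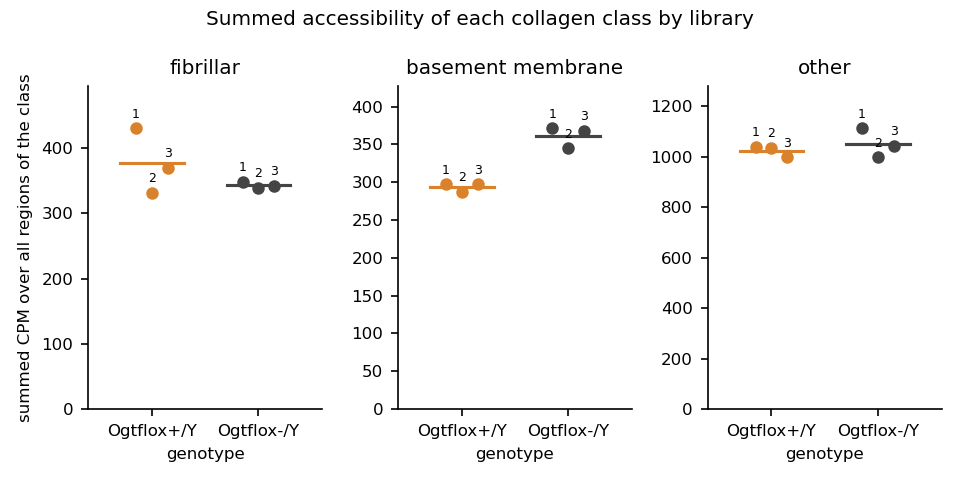
Points give the summed CPM over all regions of a collagen class in each library, numbered by replicate, with Ogtflox+/Y left of Ogtflox-/Y and a bar at each mean. The basement membrane panel is the one whose groups do not overlap, at 288 to 298 CPM in Ogtflox+/Y and 345 to 372 CPM in Ogtflox-/Y.

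Subgroup counts are read beside the 15.4% higher and 12.7% lower over all tested regions. Within the basement membrane class, the 6 type IV genes held 72 regions. Of these, 4 were higher (5.56%) and 14 lower (19.4%), with a median log2 fold change of -0.32. The pair Col15a1 and Col18a1 held 29 regions, of which 0 were higher and 5 lower (17.2%) at an adjusted p under 0.05, with a median of -0.26. Among other collagens, the transmembrane types had 5 regions higher (6.85%) and 13 lower (17.8%) of 73 tested. The fibril-associated types had 10 higher (10.5%) and 13 lower (13.7%) of 95, a share of losses near that over all regions. The beaded microfibril genes of type VI had 5 higher and 5 lower of 47 (10.6% each), both below the shares over all regions. The short-chain network genes of type VIII had 1 higher (7.69%) and 2 lower (15.4%) of 13. The remaining group of Col7a1, Col26a1 and Col28a1 had 0 higher and 8 lower (22.9%) of 35.

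Few collagen start sites gained accessibility. A region within 1000 bp of a start site was present for 27 of 44 collagen genes (61.4%) and for 65.6% of all protein-coding genes. By class this was 7 of 8 basement membrane genes, 7 of 11 fibrillar genes and 13 of 25 others. Of 36 start-site regions of collagen genes, 3 were higher in Ogtflox+/Y and 5 lower, with a median log2 fold change of -0.18. Over 21938 tested start-site regions of all genes, 36.7% were higher and 5.31% lower, with a median of 0.25. The levels were unlike, at a median of 4.51 CPM for collagen start-site regions and 14.2 CPM for those of all genes. Over all regions, 27.0% were higher at 5 CPM or more and 12.7% at 2 to 5 CPM. The start-site shares were not matched for level. For the 122264 tested regions near genes but away from their starts, 11.6% were higher and 14.2% lower. Collagen regions of that kind had 40 of 419 higher (9.55%) and 70 lower (16.7%).

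Taking the most accessible region at each start gave 25 distinct regions, of which 2 were higher and 3 lower. They belong to Col11a1, Col8a1, Col15a1, Col26a1 and Col13a1, and the RefSeq promoter table holds 4 of these 5 genes. Their promoters are shown because a region within 1000 bp of the start changed, and those of the type IV genes Col4a1, Col4a2 and Col4a4 because these genes are arranged head to head with a partner. Each sequence is 300 bases of GRCm38.p6 from RefSeq, 250 before and 50 after a start, read 5′ to 3′ along the gene. Capitals mark matches on either strand to a CCAAT box (CCAAT), a GC box (GGGCGG) or a TATA box (TATAAA). Their positions are chr3:114030290-114030589 on the plus strand for Col11a1, chr16:57754688-57754987 on the minus strand for Col8a1, chr4:47207762-47208061 on the plus strand for Col15a1 and chr10:61979059-61979358 on the minus strand for Col13a1. The type IV windows are chr8:11312777-11313076 on the minus strand for Col4a1, chr8:11312555-11312854 on the plus strand for Col4a2 and chr1:82586800-82587099 on the minus strand for Col4a4.
Col11a1: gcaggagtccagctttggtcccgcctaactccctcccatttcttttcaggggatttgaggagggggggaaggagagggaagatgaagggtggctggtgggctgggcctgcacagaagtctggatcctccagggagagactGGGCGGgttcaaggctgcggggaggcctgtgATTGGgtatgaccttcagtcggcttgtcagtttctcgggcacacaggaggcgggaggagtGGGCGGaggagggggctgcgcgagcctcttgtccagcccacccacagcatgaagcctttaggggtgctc
Col8a1: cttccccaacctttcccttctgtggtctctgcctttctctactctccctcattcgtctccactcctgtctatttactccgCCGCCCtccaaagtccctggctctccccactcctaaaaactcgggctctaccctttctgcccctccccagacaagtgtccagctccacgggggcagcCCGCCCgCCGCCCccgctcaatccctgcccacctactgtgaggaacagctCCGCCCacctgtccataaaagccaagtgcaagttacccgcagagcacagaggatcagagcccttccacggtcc
Col15a1: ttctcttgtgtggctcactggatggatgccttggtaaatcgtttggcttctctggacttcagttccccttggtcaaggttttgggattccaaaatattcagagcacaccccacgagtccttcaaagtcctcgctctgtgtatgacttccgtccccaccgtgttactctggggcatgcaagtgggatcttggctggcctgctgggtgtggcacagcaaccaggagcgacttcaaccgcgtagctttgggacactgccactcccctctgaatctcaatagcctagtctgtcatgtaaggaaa
Col13a1: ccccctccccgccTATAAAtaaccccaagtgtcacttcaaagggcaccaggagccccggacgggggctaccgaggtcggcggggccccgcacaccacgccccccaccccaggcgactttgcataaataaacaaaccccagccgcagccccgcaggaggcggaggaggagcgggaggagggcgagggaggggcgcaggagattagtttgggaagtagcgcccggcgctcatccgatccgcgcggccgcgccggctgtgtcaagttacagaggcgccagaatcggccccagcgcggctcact
Col4a1: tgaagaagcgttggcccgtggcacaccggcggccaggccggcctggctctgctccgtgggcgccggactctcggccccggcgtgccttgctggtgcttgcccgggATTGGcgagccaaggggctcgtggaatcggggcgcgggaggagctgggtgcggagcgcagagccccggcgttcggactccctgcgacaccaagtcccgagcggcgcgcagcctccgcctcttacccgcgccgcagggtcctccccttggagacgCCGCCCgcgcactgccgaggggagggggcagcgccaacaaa
Col4a2: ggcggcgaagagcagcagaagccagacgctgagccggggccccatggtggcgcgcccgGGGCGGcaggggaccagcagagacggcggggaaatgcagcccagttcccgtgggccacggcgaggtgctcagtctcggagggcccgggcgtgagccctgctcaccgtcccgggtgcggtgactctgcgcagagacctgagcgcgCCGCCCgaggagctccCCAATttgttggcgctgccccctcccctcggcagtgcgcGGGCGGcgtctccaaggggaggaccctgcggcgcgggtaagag
Col4a4: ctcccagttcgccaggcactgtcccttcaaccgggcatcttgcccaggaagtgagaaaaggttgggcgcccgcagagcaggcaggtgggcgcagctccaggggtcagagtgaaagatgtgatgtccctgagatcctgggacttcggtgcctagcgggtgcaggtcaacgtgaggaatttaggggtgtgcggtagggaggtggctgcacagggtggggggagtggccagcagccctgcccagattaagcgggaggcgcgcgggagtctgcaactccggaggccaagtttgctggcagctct

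The Col4a1 and Col4a2 windows share 78 bases and are rich in CpG, with 37 and 33 CpG dinucleotides in 300 bases. Col15a1 and Col11a1 were poor in CpG, with 8 and 9. Of the 38 promoter windows of 35 collagen genes in the table, 23 held a GC box, against 35.7% of 32851 windows of all genes. A CCAAT box was in 13 of 38, against 37.4% of all windows, and a TATA box in 5 of 38, against 13.6%. The letters TTCNNNGAA, a STAT motif searched because the series concerns STAT3, were in 2 of 38 windows, those of Col28a1 and Col6a5, against 8.30% of all. The AP-1 letters TGANTCA were in 1, that of Col6a1, against 7.81%. No matches of different motifs overlapped in collagen windows. A match describes letters only. The whole Col11a1 window lies inside the region that changed, but 19 bases of the Col15a1 window and 0 of the Col8a1 and Col13a1 windows do.

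Col11a1, a chain of the type XI collagen that nucleates cartilage fibrils, had 11.4, 7.29 and 9.77 CPM at its start in Ogtflox+/Y replicates 1 to 3, against 5.77, 5.51 and 6.91 CPM in Ogtflox-/Y. All 3 Ogtflox+/Y libraries were higher, with a log2 fold change of 0.65 (SE 0.18, adjusted p = 0.013 in edgeR). That call was lost with Ogtflox+/Y replicate 2 alone, without Ogtflox+/Y replicate 1, without Ogtflox-/Y replicate 2 and with scaling by library totals (log2 fold change 0.24 to 0.79 over all settings but the title grouping). Col8a1, a short-chain collagen of vessel walls and the cornea, had 26.7, 27.1 and 28.8 CPM in Ogtflox+/Y, against 20.7, 18.7 and 20.1 CPM in Ogtflox-/Y, in a region upstream of its start (log2 fold change 0.48, SE 0.10, adjusted p = 0.0024 in edgeR). The Ogtflox+/Y libraries varied little there and did not overlap with Ogtflox-/Y. This call was lost with scaling by library totals.

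A region centred 0.544 kb past the start of Col15a1, whose product links basement membranes to neighbouring fibrils, lost accessibility in Ogtflox+/Y. It had 4.31, 4.44 and 4.85 CPM in Ogtflox+/Y, against 7.75, 11.8 and 14.3 CPM in Ogtflox-/Y (chr4:47208043-47209069, log2 fold change -1.33, SE 0.20, adjusted p = 1.8e-04 in edgeR). The Ogtflox-/Y libraries spread widely, yet the lowest of them was above every Ogtflox+/Y library. Col13a1, a transmembrane collagen needed at the neuromuscular junction, had a lower region centred 0.65 kb past its start. That region had 2.42, 1.51 and 1.26 CPM in Ogtflox+/Y, against 3.49, 4.73 and 6.01 CPM in Ogtflox-/Y (log2 fold change -1.48, SE 0.27, adjusted p = 8.3e-04 in edgeR). Both calls held in each of the 13 settings run other than the grouping by title. Col26a1, a collagen first described in testis and ovary, had 3.33, 3.65 and 3.52 CPM in Ogtflox+/Y, against 5.09, 5.23 and 6.34 CPM in Ogtflox-/Y (log2 fold change -0.67, SE 0.19, adjusted p = 0.016 in edgeR). That call was lost with Ogtflox+/Y replicate 2 alone and without Ogtflox-/Y replicate 3.

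**Figure D3:**
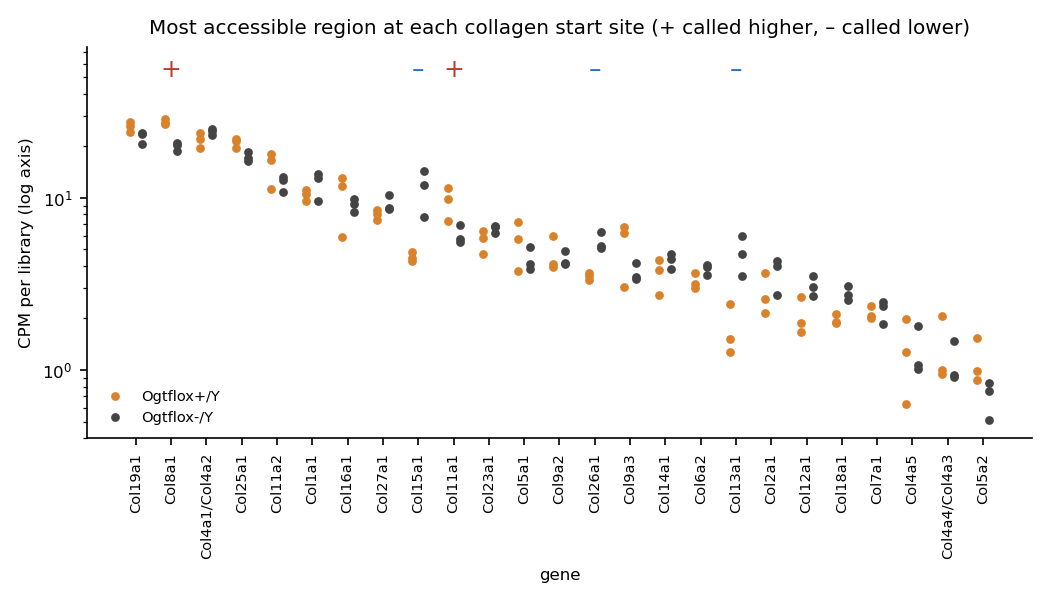
Points give the CPM, on a log axis, of each library in the most accessible region at each collagen start, with Ogtflox+/Y in orange left of Ogtflox-/Y in grey and genes ordered by mean level. Plus and minus signs mark the 2 called higher and the 3 called lower, and most starts, including the shared Col4a1 and Col4a2 start, show overlapping groups or no call.

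Summing reads over all regions of a gene gave 1 value per gene, fitted over 17793 genes of which 18.3% were higher in Ogtflox+/Y and 19.9% lower. Of 43 collagen genes, 3 were higher, 17 were lower and 23 were not called. The median log2 fold change was -0.17 over collagen genes and 0.0002 over all genes. Fibrillar genes had 2 higher and 1 lower of 11, basement membrane genes 0 higher and 4 lower of 8, and other collagens 1 higher and 12 lower of 24. This split depends on scaling: with the TMM factors of the region table, which moved the median of all genes to 0.14 and called 35.5% of genes higher and 9.32% lower, 5 collagen genes were higher and 10 lower. That alternative was chosen after seeing the data. Levels of gene sums below are on the gene table's own scaling and are not set beside region levels.

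8 genes kept their lower call in each of the 17 settings run other than the grouping by title. They are Col4a1, Col4a2, Col18a1, Col5a1, Col13a1, Col22a1, Col6a6 and Col17a1. Of the 3 genes called higher, 0 kept the edgeR call in all of them. How many of all called genes keep their call over these settings was not counted. The settings reuse the same libraries, so a kept call is no independent support. Of the 23 genes not called, 10 were called in at least 1 of the alternatives, namely Col1a1, Col1a2, Col4a4, Col4a6, Col6a4, Col7a1, Col8a1, Col11a1, Col23a1 and Col27a1.

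**Figure D4:**
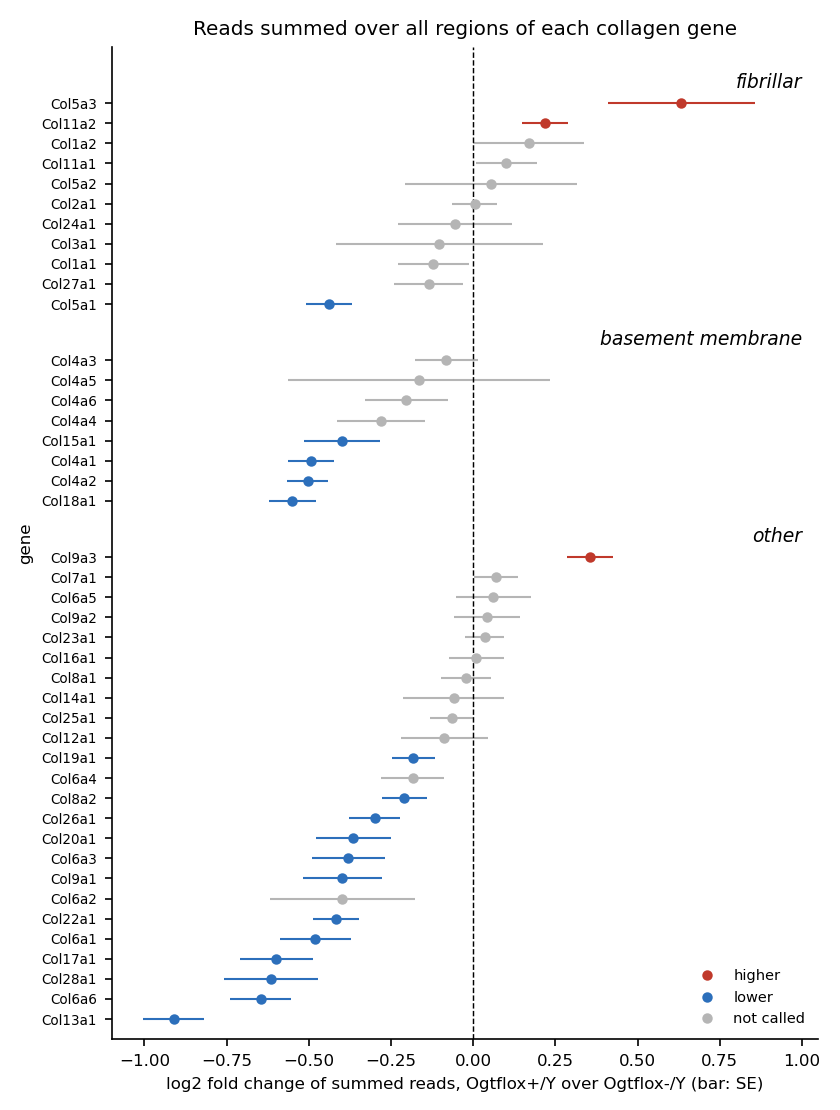
Each row is 1 collagen gene with its log2 fold change of summed reads, Ogtflox+/Y over Ogtflox-/Y, and its standard error as a bar, ordered within the fibrillar, basement membrane and other classes. Col13a1 is lowest at -0.91, the 4 blue basement membrane genes run from -0.40 to -0.55, and Col5a3 is highest at 0.63 with a wide bar.

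Col4a1 and Col4a2 encode the chains of the type IV collagen found in nearly all basement membranes, including those of brain vessels. They lie side by side on chromosome 8 and were the most marked pair of the class. Summed reads of Col4a1 were 42.9, 49.3 and 52.1 CPM in Ogtflox+/Y, against 68.0, 67.2 and 68.2 CPM in Ogtflox-/Y (log2 fold change -0.49, SE 0.070, adjusted p = 1.1e-04 in edgeR). Those of Col4a2 were 87.4, 87.9 and 99.6 CPM in Ogtflox+/Y, against 129, 129 and 132 CPM in Ogtflox-/Y (log2 fold change -0.50, SE 0.062, adjusted p = 3.6e-05 in edgeR). Neither gene's groups overlapped, and the Ogtflox-/Y libraries lay close together.

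The loss at this pair lay away from the shared start. The start region, chr8:11312589-11313342, had 19.4, 22.0 and 23.7 CPM in Ogtflox+/Y, against 24.2, 25.1 and 23.2 CPM in Ogtflox-/Y. The groups overlapped there, and the region was not called (log2 fold change -0.16, SE 0.11, adjusted p = 0.28 in edgeR). Of the 45 regions assigned to the pair, 36 had a log2 fold change below 0, 13 were called lower and 2 higher. A region inside Col4a1, chr8:11215230-11215630, had 5.97, 5.47 and 5.32 CPM in Ogtflox+/Y, against 12.3, 10.8 and 11.1 CPM in Ogtflox-/Y (log2 fold change -1.02, SE 0.15). Inside Col4a2, chr8:11384903-11385303 had 0.378, 0.951 and 0.665 CPM in Ogtflox+/Y, against 2.66, 2.15 and 2.51 CPM in Ogtflox-/Y, a log2 fold change of -1.86 (SE 0.32). Another, chr8:11352473-11352873, had 0.983, 2.06 and 2.59 CPM in Ogtflox+/Y, against 5.70, 5.62 and 5.26 CPM in Ogtflox-/Y (log2 fold change -1.54, SE 0.26). In all 3 regions every Ogtflox+/Y library was below every Ogtflox-/Y library. The largest gain at the pair, downstream of Col4a2 at chr8:11452950-11453350, had 3.40, 0.634 and 1.59 CPM in Ogtflox+/Y, against 0.380, 0.625 and 0.758 CPM in Ogtflox-/Y. Its groups overlapped, with Ogtflox+/Y replicate 1 well above the rest, and its call was lost with replicate 2 alone, without Ogtflox+/Y replicate 1 or without Ogtflox-/Y replicate 1 (log2 fold change 1.61 with all libraries, and 0.033 to 1.99 over the settings).

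The other type IV genes changed less by summed reads than Col4a1 and Col4a2. Col4a3, Col4a4, Col4a5 and Col4a6, whose chains form the specialised networks of kidney, inner ear, eye and smooth muscle, were not called by summed reads, with log2 fold changes of -0.08, -0.28, -0.17 and -0.20. Col4a4 summed to 12.2, 10.6 and 10.6 CPM in Ogtflox+/Y, against 12.9, 12.3 and 15.3 CPM in Ogtflox-/Y, without overlap. Scaling by library totals, which moved the median of all genes to -0.12, called Col4a4 (-0.40) and Col4a6 (-0.32) lower. The shared start of Col4a3 and Col4a4 had 2.04, 0.951 and 0.997 CPM in Ogtflox+/Y, against 0.912, 0.937 and 1.47 CPM in Ogtflox-/Y, with overlapping groups and few reads. A region inside Col4a4, chr1:82476702-82477102, was higher, with 2.42, 1.11 and 2.59 CPM in Ogtflox+/Y, against 0.836, 0.547 and 0.568 CPM in Ogtflox-/Y (log2 fold change 1.71, SE 0.36, adjusted p = 0.0021 in edgeR). It and a region inside Col4a6, chrX:141439431-141439831 (log2 fold change 1.35, SE 0.33, adjusted p = 0.0058 in edgeR), were no longer called with Ogtflox+/Y replicate 2 alone. Col4a5 was covered by a single region at its start, at 1.97, 0.634 and 1.26 CPM in Ogtflox+/Y, against 1.06, 1.02 and 1.799 CPM in Ogtflox-/Y.

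Col18a1, the precursor of the angiogenesis inhibitor endostatin, summed to 35.1, 35.5 and 33.0 CPM in Ogtflox+/Y, against 52.6, 46.9 and 52.4 CPM in Ogtflox-/Y (log2 fold change -0.55, SE 0.072, adjusted p = 5.7e-05 in edgeR). The groups did not overlap. Of its 16 regions 14 had a log2 fold change below 0 and 4 were called lower, 1 of them across an annotated start at chr10:77166280-77166680. That region had 1.06, 1.51 and 1.59 CPM in Ogtflox+/Y, against 2.73, 2.50 and 3.93 CPM in Ogtflox-/Y (log2 fold change -1.13, SE 0.27, adjusted p = 0.0053 in edgeR). Its most accessible region, inside the gene, was not called, at 16.6, 16.4 and 14.8 CPM in Ogtflox+/Y and 19.1, 16.4 and 17.1 CPM in Ogtflox-/Y. Col15a1 summed to 28.4, 30.9 and 25.7 CPM in Ogtflox+/Y, against 30.3, 36.0 and 45.1 CPM in Ogtflox-/Y, with groups that overlapped and a log2 fold change of -0.40 (SE 0.12, adjusted p = 0.013 in edgeR). That summed call was lost without Ogtflox+/Y replicate 3 (-0.33), without Ogtflox-/Y replicate 3 (-0.23), with replicate 2 alone (-0.28) and with the TMM factors of the region table (-0.25).

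**Figure D5:**
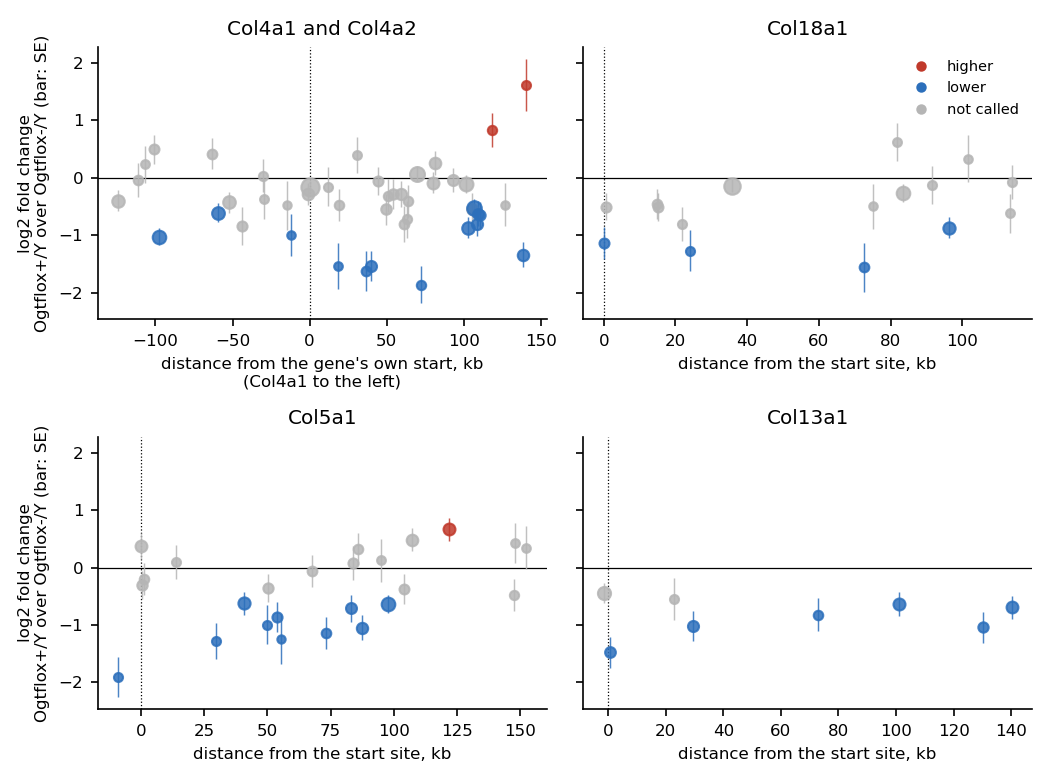
Each point is 1 tested region, placed by its distance in kb from the start of its gene and by its log2 fold change of Ogtflox+/Y over Ogtflox-/Y, with its standard error as a bar and a size that grows with its mean CPM. At Col4a1 and Col4a2 the large point at the start sits near 0 while 13 blue points lie along both genes, and at Col13a1 all 8 points are below 0.

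Fibrillar collagens held both gains and losses. Col5a1, a chain of the type V collagen that sets fibril diameter, was the 1 fibrillar gene called lower. It summed to 51.8, 44.4 and 45.2 CPM in Ogtflox+/Y, against 60.3, 64.7 and 66.5 CPM in Ogtflox-/Y, without overlap (log2 fold change -0.44, SE 0.070, adjusted p = 2.6e-04 in edgeR). Of its 25 regions 10 were lower and 1 was higher. The start region was not called, at 7.18, 3.73 and 5.78 CPM in Ogtflox+/Y and 5.17, 3.83 and 4.12 CPM in Ogtflox-/Y. The largest loss lay upstream at chr2:27877079-27877479, with 0.680, 0.317 and 0.532 CPM in Ogtflox+/Y, against 2.28, 1.95 and 1.66 CPM in Ogtflox-/Y (log2 fold change -1.90, SE 0.34, adjusted p = 7.6e-04 in edgeR). The next 2 losses by size, inside the gene at 29.5 and 73.05 kb from the start, had log2 fold changes of -1.28 and -1.14. The one at 29.5 kb was no longer called with Ogtflox+/Y replicate 2 alone (adjusted p = 0.051 in edgeR).

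Col5a3, a type V chain of more restricted expression, had the largest summed gain, with a wide spread among the Ogtflox+/Y libraries. Its regions summed to 22.2, 8.93 and 16.9 CPM in Ogtflox+/Y, against 11.3, 8.78 and 11.3 CPM in Ogtflox-/Y (log2 fold change 0.63, SE 0.22, adjusted p = 0.034 in edgeR). Ogtflox+/Y replicate 2 lay within the Ogtflox-/Y range while the other 2 lay above it. The value was -0.22 with Ogtflox+/Y replicate 2 alone, 0.33 without replicate 1 and 0.91 without replicate 2. DESeq2 did not call it (adjusted p = 0.21). Col11a2, the other called gain, summed to 96.2, 78.1 and 87.7 CPM in Ogtflox+/Y, against 72.6, 78.5 and 74.0 CPM in Ogtflox-/Y, with overlap (log2 fold change 0.22, SE 0.071, adjusted p = 0.023 in edgeR). All 6 of its regions had a log2 fold change above 0 and 3 were called higher, but the most accessible, at 79.8, 64.5 and 67.9 CPM in Ogtflox+/Y and 60.9, 59.1 and 54.0 CPM in Ogtflox-/Y, lies at the starts of the neighbours Rxrb and Slc39a7. That region was reversed under loess scaling (-0.10), and the summed call was lost in 9 of the 17 settings.

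Genes of the major fibrils had few regions and no summed call with the 10 kb flanks. Col1a1 and Col1a2, the chains of type I collagen, had log2 fold changes of -0.12 (SE 0.11) and 0.17 (SE 0.17). Both depend on the flanks and were called in opposite directions with narrower ones. With flanks of 2000 bp Col1a1 was lower (-0.40, adjusted p = 0.0099 in edgeR) and Col1a2 higher (1.21, adjusted p = 0.0043 in edgeR), and the same calls were made with no flanks. Col1a2 was also higher under loess scaling (0.41, adjusted p = 0.041). A single region inside Col1a2, chr6:4510911-4511311, was called higher, with 2.72, 3.41 and 2.33 CPM in Ogtflox+/Y, against 1.06, 1.055 and 1.14 CPM in Ogtflox-/Y (log2 fold change 1.36, SE 0.26, adjusted p = 0.0012 in edgeR). The start of Col1a1 had 11.04, 10.5 and 9.57 CPM in Ogtflox+/Y, against 13.7, 12.9 and 9.61 CPM in Ogtflox-/Y, and was not called. Around it 3 regions were higher and 1 lower. Col3a1, the type III chain of vessel walls, had 1 region and Col5a2 had 2, and none was called. Col27a1, a cartilage collagen, had 4 regions higher and 2 lower of 15. At chr4:63253670-63254070 it had 7.94, 2.62 and 4.45 CPM in Ogtflox+/Y, against 1.52, 1.21 and 1.18 CPM in Ogtflox-/Y (log2 fold change 1.96, SE 0.32, adjusted p = 3.7e-04 in edgeR), a call lost with replicate 2 alone. At chr4:63228958-63229358, with 5.82, 0.793 and 1.99 CPM in Ogtflox+/Y and 0.912, 0.898 and 0.994 CPM in Ogtflox-/Y, replicate 2 lay below the Ogtflox-/Y range. That region was called higher with all libraries (log2 fold change 1.61, SE 0.46, adjusted p = 0.015 in edgeR), and its value was -0.26 with replicate 2 alone. Col24a1, a minor fibrillar collagen, had a region with 1.36, 1.27 and 0.997 CPM in Ogtflox+/Y, against 0, 0.117 and 0.426 CPM in Ogtflox-/Y. It was called higher in each of the 13 settings run other than the grouping by title (chr3:145457568-145457968, adjusted p = 0.0028 in edgeR), though it rests on few reads. Col2a1, the type II chain of cartilage, was level, at 44.4, 40.8 and 45.4 CPM in Ogtflox+/Y and 43.0, 44.4 and 42.8 CPM in Ogtflox-/Y.

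Gains at fibrillar genes were uneven among the Ogtflox+/Y libraries. Ogtflox+/Y replicate 2 was the lowest of its group in 14 of the 18 fibrillar regions called higher (77.8%), in 3 of 4 basement membrane and 10 of 21 other regions, and in 49.4% of all regions called higher in the series. In the 27 astrocyte marker regions called higher it was lowest in 23 (85.2%). The summed astrocyte level of 433 CPM in that library was the lowest of its group, beside 547 and 546 CPM in the others. The part of other cell types in the fibrillar gains was not tested. With Ogtflox+/Y replicate 2 alone against the Ogtflox-/Y libraries, 4 fibrillar regions were higher and 6 lower, and 2 basement membrane regions were higher and 12 lower. That is 4.35% and 6.52% of fibrillar and 1.98% and 11.9% of basement membrane regions, beside 5.89% and 5.58% of all regions in the same comparison. Markers of vessel and meningeal cells, in which type I and type IV collagens are known to be made, were summed the same way. Endothelial markers summed to 86.9, 82.3 and 80.6 CPM in Ogtflox+/Y, against 85.4, 88.4 and 91.8 CPM in Ogtflox-/Y. Mural cell markers summed to 181, 165 and 187 CPM in Ogtflox+/Y, against 176, 169 and 162 CPM in Ogtflox-/Y. Fibroblast and meningeal markers summed to 156, 163 and 142 CPM in Ogtflox+/Y, against 158, 164 and 169 CPM in Ogtflox-/Y. The genotypes overlapped in each of these 3 sums, but single markers moved. By summed reads in edgeR, 3 of the 6 endothelial genes with any region were lower in Ogtflox+/Y and 0 higher, namely Cldn5 (log2 fold change -1.26), Kdr (-0.71) and Cdh5 (-0.66). Of 8 mural genes 3 were lower, Pdgfrb (-0.68), Rgs5 (-0.61) and Kcnj8 (-0.98), and Notch3 was higher (0.26). Of 7 fibroblast and meningeal genes with any region, Slc6a13 (-0.62) and Igf2 (-0.95) were lower and Dcn was higher (0.91). Region by region, 3 endothelial regions were higher and 6 lower of 25 (24.0%), with a median log2 fold change of -0.33, beside -0.28 for basement membrane collagens. Mural regions had 6 higher and 6 lower of 40, with a median of -0.053, and fibroblast and meningeal regions 7 higher and 6 lower of 40, with a median of -0.16. The part of these cells in the basement membrane losses was not tested.

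Among other collagens, Col13a1 had the largest summed loss. It summed to 16.9, 20.002 and 16.6 CPM in Ogtflox+/Y, against 33.6, 32.5 and 34.3 CPM in Ogtflox-/Y, without overlap (log2 fold change -0.91, SE 0.093, adjusted p = 6.8e-06 in edgeR). All 8 of its regions had a log2 fold change below 0, from -0.44 to -1.48, and 6 were called lower. Col17a1, a transmembrane collagen of the hemidesmosomes that anchor skin, summed to 14.9, 16.5 and 13.5 CPM in Ogtflox+/Y, against 21.1, 21.5 and 25.04 CPM in Ogtflox-/Y (log2 fold change -0.60, SE 0.11, adjusted p = 8.0e-04 in edgeR). Its loss sat mainly in 1 region, chr19:47658906-47659496, with 9.38, 10.5 and 8.11 CPM in Ogtflox+/Y, against 16.0, 14.7 and 16.997 CPM in Ogtflox-/Y. The remaining transmembrane genes, Col23a1 and Col25a1, were not called by summed reads. Col25a1, the neuronal collagen whose fragment occurs in amyloid plaques, summed to 70.2, 84.2 and 80.7 CPM in Ogtflox+/Y, against 83.4, 78.7 and 83.9 CPM in Ogtflox-/Y, with 4 of 41 regions higher and 2 lower. Its start region had 19.4, 21.9 and 21.3 CPM in Ogtflox+/Y and 17.02, 16.2 and 18.4 CPM in Ogtflox-/Y. Those groups did not overlap, but the region missed the threshold (log2 fold change 0.28, SE 0.11, adjusted p = 0.067 in edgeR). Col23a1 had 1 region higher, at the start of its neighbour Phykpl, and 4 lower. Its summed log2 fold change of 0.034 turned to -0.31 without regions of other genes (adjusted p = 0.0072 in edgeR) and to -0.33 with no flanks (adjusted p = 0.0041 in edgeR), and both were called lower.

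Fibril-associated collagens sit on the surface of larger fibrils. Col22a1, found at tissue junctions such as that of muscle and tendon, summed to 61.5, 68.3 and 56.6 CPM in Ogtflox+/Y, against 81.2, 80.0 and 87.2 CPM in Ogtflox-/Y, without overlap (log2 fold change -0.42, SE 0.070, adjusted p = 3.6e-04 in edgeR). Of its 33 regions 9 were lower and 1 was higher. Col9a1 and Col9a3, chains of the same type IX molecule of cartilage, were called in opposite directions. Col9a1 had a log2 fold change of -0.40 (SE 0.12), lost in 7 of 17 settings. Col9a3 summed to 42.5, 40.5 and 42.5 CPM in Ogtflox+/Y, against 32.4, 33.6 and 31.9 CPM in Ogtflox-/Y (log2 fold change 0.36, SE 0.070, adjusted p = 0.0011 in edgeR), a call lost only with library totals among the 17 settings. Most of its reads came from a region at the start of the neighbour Ogfr, with 40.2, 44.5 and 39.7 CPM in Ogtflox+/Y and 32.7, 32.8 and 30.1 CPM in Ogtflox-/Y. Without regions of other genes the value was 0.95 and still called. The region inside Col9a3 with the largest gain, chr2:180600602-180601002, had 6.43, 1.11 and 6.45 CPM in Ogtflox+/Y and 1.29, 1.13 and 1.47 CPM in Ogtflox-/Y, so that replicate 2 lay below the Ogtflox-/Y range and the value was -0.24 with that library alone. Col12a1, which binds type I fibrils, had the largest gain among other collagens at chr9:79648635-79649035, with 2.95, 2.62 and 2.66 CPM in Ogtflox+/Y, against 0.608, 0.586 and 0.521 CPM in Ogtflox-/Y (log2 fold change 2.25, SE 0.29, adjusted p = 3.6e-05 in edgeR). It held in each of the 13 settings other than the title grouping. Col19a1, whose fragment is needed for inhibitory synapses in mouse cortex, had an accessible start, at 26.2, 24.0 and 27.6 CPM in Ogtflox+/Y and 20.4, 23.4 and 23.8 CPM in Ogtflox-/Y, not called (adjusted p = 0.17 in edgeR). Its summed reads were called lower by a small amount (log2 fold change -0.18, SE 0.066, adjusted p = 0.038 in edgeR), a call lost in 8 of 17 settings.

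Type VI collagen forms beaded microfibrils near cell surfaces. Col6a1 and Col6a3, both chains of the common type VI molecule, were called lower, with log2 fold changes of -0.48 (SE 0.11) and -0.38 (SE 0.11), calls lost in 1 and 7 of 17 settings. Col6a2, the third such chain, had 1 region and was not called (-0.40, SE 0.22). The chains Col6a4, Col6a5 and Col6a6 lie next to each other on chromosome 9 and did not move together. Col6a6 summed to 19.7, 24.9 and 21.7 CPM in Ogtflox+/Y, against 36.2, 33.1 and 34.5 CPM in Ogtflox-/Y (log2 fold change -0.65, SE 0.093, adjusted p = 1.2e-04 in edgeR). Most of it came from chr9:105693046-105693446, with 3.63, 5.15 and 6.11 CPM in Ogtflox+/Y, against 16.9, 12.1 and 12.8 CPM in Ogtflox-/Y. Col6a5 was not called by summed reads (0.06, SE 0.11), with 4 regions higher and 1 lower of 10. At chr9:105904562-105904962 it had 1.89, 2.30 and 1.99 CPM in Ogtflox+/Y, against 0.608, 0.195 and 0.710 CPM in Ogtflox-/Y (log2 fold change 2.09, SE 0.38, adjusted p = 7.3e-04 in edgeR), and this call held in each of the 13 settings other than the title grouping. Col6a4 had 1 region higher of 12 and no summed call.

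Among the remaining genes, Col28a1, a type VI-related collagen of peripheral nerve, had 4 regions lower of 15 and summed to 16.5, 20.6 and 13.4 CPM in Ogtflox+/Y, against 27.1, 21.2 and 28.9 CPM in Ogtflox-/Y, without overlap (log2 fold change -0.61, SE 0.14, adjusted p = 0.0034 in edgeR). It was no longer called with Ogtflox+/Y replicate 2 alone (-0.31). Col7a1, the anchoring fibril collagen of skin, was not called by summed reads (log2 fold change 0.068) and lost accessibility at chr9:108960909-108961309, with 0.378, 0.317 and 0.665 CPM in Ogtflox+/Y, against 1.52, 1.13 and 1.37 CPM in Ogtflox-/Y (log2 fold change -1.50, SE 0.39, adjusted p = 0.0083 in edgeR). The summed value of Col7a1 was -0.73 and called lower with no flanks (adjusted p = 0.045 in edgeR), and 0.21 and called higher with the TMM factors of the region table (adjusted p = 0.041 in edgeR). Col26a1, Col20a1 and Col8a2 were called lower by summed reads with log2 fold changes of -0.30, -0.36 and -0.21, and these calls were lost in 2, 7 and 6 of 17 settings.

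Of the 26 called regions singled out by size, level or start site, 11 held in each of the 13 settings other than the title grouping. 8 of them were losses, and the gains among them were in Col12a1, Col24a1 and Col6a5. The share of all called regions that hold in these settings was not counted. Accessible regions were somewhat sparser around collagens than around other genes, at a median of 8.49 per 100 kb of gene and flanks against 10.97, with the highest density, 20.45, at Col4a2.

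Genes that make, process, bind or break down collagens were described alongside. The 65 such genes had 590 tested regions, of which 99 were higher in Ogtflox+/Y (16.8%) and 81 lower (13.7%), with a median log2 fold change of -0.0099. These shares are near the 15.4% and 12.7% over all regions. Collagen receptors had 24 higher (29.6%) and 7 lower (8.64%) of 81, folding and modifying enzymes 24 higher (19.5%) and 12 lower (9.76%) of 123, and degrading enzymes 15 higher (20.3%) and 11 lower (14.9%) of 74. Cross-linking enzymes had 5 higher and 5 lower of 23 (21.7% each). Propeptide-cleaving enzymes had 14 higher (11.2%) and 20 lower (16.0%) of 125. Basement membrane proteins other than collagens, such as laminins, had 17 higher (10.4%) and 26 lower (15.9%) of 164. The 2 largest changes in each direction were all within 10 kb of laminin genes. A region 1587 bp outside the bounds of Lamb2, a laminin chain of synapses and vessels, had 12.6, 8.48 and 11.3 CPM in Ogtflox+/Y, against 1.06, 2.03 and 1.42 CPM in Ogtflox-/Y (chr9:108492117-108492517, log2 fold change 2.78, SE 0.23, adjusted p = 4.3e-07 in edgeR). The groups lay far apart. Lama2, a laminin chain of muscle and glial basement membranes, held a gain of 2.58 and a loss of -2.07, and Lama3, a chain of epithelial laminin, a loss of -2.02 on the log2 scale.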

How the data were processed

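Per the submitters' processing notes, the tools were FastQC, Trimmomatic, BWA, Picard, MACS2 and SAMtools 1.9, with mm10 as the mouse build and no roles given. Which program counted the reads, how the regions were made and whether reads were shifted for the transposase is not given in the sources used here. Per the labels' protocols, a general DNA library kit was used and no transposition step is described. Per the file headers, the 193148 regions, common to all libraries, carry counts, RPKM and a score. The authors deposited raw whole-number counts, which entered the tests unchanged. The deposited RPKM gave each library's total, and the deposited score, a count rescaled by library total, was not tested.

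Tests used edgeR's quasi-likelihood method (version 4.0.16, run under R 4.3.3) with genotype as the only term, TMM scaling, the package's filter on low counts and Benjamini-Hochberg adjustment over all regions or genes tested. Calls are at an adjusted p under 0.05. The level given for 3 reads covers counting error only. Gene bounds came from RefSeq for GRCm38.p6, the assembly called mm10, and starts from its promoter table. For the 9 collagen genes without an entry there (Col12a1, Col14a1, Col1a1, Col22a1, Col26a1, Col2a1, Col4a3, Col5a2 and Col9a3), either gene bound was taken as a start. A region in the windows of several genes counts once, for the nearest collagen, in region counts, and for each gene in gene sums.

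Named regions are, per class, the 3 called regions that gained and the 3 that lost most, with at least 1 CPM in the higher group, the 3 most accessible ones and the most accessible at each start. Other regions given for Col1a2, Col4a1, Col4a2, Col17a1, Col18a1 and Col6a6 were picked once their values had been seen. Genes called by summed reads are all named. The members and lists were chosen with earlier results of these data known. Alternatives were DESeq2 1.42.0, no filter, scaling by loess curves (limma 3.58.1), by library totals and by reads in regions, Ogtflox+/Y replicate 2 alone, grouping by title, each library left out, windows of 2000 and 0 bp, and moving Col15a1 and Col18a1 out of the basement membrane class. Leaving out regions of other genes, the TMM factors of the region table for gene sums, and every motif but the STAT one were added after seeing the data. The scripts were tested on simulated counts.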

Additional observations from a re-analysis of the deposited data

How the results depend on the processing

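No paired analysis was possible because libraries of different genotypes share no replicate number in the titles. Counts are given in the order regions of all collagens higher and lower, fibrillar higher and lower, basement membrane higher and lower, other higher and lower, partner genes higher and lower, then collagen genes higher and lower by summed reads. With edgeR as described these were 43, 75, 18, 15, 4, 19, 21, 41, 99, 81, 3 and 17. Among counts that moved by over 1.5 times, DESeq2 gave 28 collagen regions higher, 11 other collagen regions higher and 25 lower, and 52 partner regions lower. Scaling by library totals, which moved the median of all regions to -0.27, gave 24, 139, 9, 23, 3, 42, 12, 74, 51, 154, 1 and 20. With Ogtflox+/Y replicate 2 alone, which is assumed to vary like the other libraries, they were 16, 35, 4, 6, 2, 12, 10, 17, 36, 44, 1 and 8, and 15 of 26 named regions stayed called. Under the grouping by title all were 0 with edgeR, as was the count of named regions. At an unadjusted p under 0.05 that grouping gave 66 collagen, 19 fibrillar, 15 basement membrane, 32 other and 83 partner regions and 8 collagen genes, and no other tool was run on it. Leaving out 1 library in turn gave 24 to 52, 44 to 74, 9 to 22, 10 to 15, 2 to 5, 11 to 19, 12 to 26, 23 to 44, 53 to 111, 45 to 78, 1 to 3 and 11 to 18, with 22 to 26 named regions. Counts of collagen regions fell by over 1.5 times for gains without Ogtflox+/Y replicate 1 (26) or Ogtflox-/Y replicate 2 (24), and for losses without Ogtflox-/Y replicate 1 (47), replicate 2 (44) or replicate 3 (49). The TMM factors of the region table gave 5 collagen genes higher and 10 lower. Col11a2 at 34031542 was reversed under loess curves (-0.097), Col27a1 at 63228958 and Col9a3 at 180600602 with replicate 2 alone (-0.26 and -0.24), and Col27a1 at 63228958 and Col4a2 at 11452950 under the title grouping (-0.56 and -0.12). The causes were not tested. The basement membrane median minus that of all regions ran from -0.36 to -0.24 over the settings run, while the fibrillar difference ran from -0.11 to 0.15. Windows of 0 bp gave 32 collagen regions higher and 69 lower. Reads limit regions near 1 CPM, where 3 reads are 0.117 to 0.238 CPM.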

Other observations

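Most tested collagen regions lay inside the genes, and the share of losses was no higher there than upstream. Of 399 tested regions inside a collagen gene, 32 were higher in Ogtflox+/Y (8.02%) and 69 lower (17.3%), with a median log2 fold change of -0.17. Upstream of the start, 4 of 22 regions were higher and 4 lower (18.2% each), which is few regions for a comparison. Downstream of the gene, 3 of 25 were higher and 1 lower. The 7 regions that sit at the start of a neighbouring gene, such as Phykpl beside Col23a1 and Ogfr beside Col9a3, had a median level of 36.7 CPM. By edgeR 3 of them were higher (42.9%) and 0 lower. Start-site regions of all genes had 36.7% higher and 5.31% lower, so this count is near the usual share. Leaving out regions of other genes gave 38 collagen regions higher and 75 lower.

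The more accessible collagen regions had the largest share of calls. Of 81 collagen regions at a mean of 5 CPM or more, 12 were higher (14.8%) and 23 were lower (28.4%), against 27.0% higher and 12.3% lower of all regions at that level. At 2 to 5 CPM, 8 of 142 collagen regions were higher (5.63%) and 27 lower (19.0%), against 12.7% and 17.3% of all regions. At 1 to 2 CPM, 18 of 188 were higher (9.57%) and 20 lower (10.6%), against 10.8% and 9.98%. No test was made of these shares.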
